A study of Mus musculus with 6 samples.

Results

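The genes described here form the signalling route that holds primordial follicles at rest or wakes them: the phosphoinositide 3-kinase (PI3K) subunit genes Pik3ca and Pik3r1, the AKT kinase genes Akt1 and Akt2, the forkhead factor genes Foxo1 and Foxo3, the tuberous sclerosis complex genes Tsc1 and Tsc2, and the kinase gene Mtor. They were taken by gene symbol, and all 9 were found once each among the 37924 rows of the deposited gene table. All 9 passed the filter on low values, a mean of at least 0.5 FPKM (fragments divided by transcript length and by the number mapped in that library) over the libraries, which 14934 genes passed.

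The 6 libraries were compared in groups of 3, all from ovaries of mice on the mixed strain C57BL/6J/129S7/SvEvBrd at postnatal day 14. The control mice were homozygous for a floxed allele and carried no Cre, and the conditional knockout (cKO) mice were homozygous for the same allele and carried Gdf9iCre. Gdf9 is an oocyte gene and its promoter drives this Cre, so the deletion is directed at oocytes, while the libraries hold RNA of the whole ovary. For every library 3 mice gave 1 ovary each, and the spread reported is one between pools. In such bulk samples fewer cells of a type and less RNA per cell cannot be told apart. The comparison asks how ovarian transcripts differ when the floxed gene is removed from oocytes. Only the cKO mice carried Cre, so the removal and the presence of Cre itself cannot be told apart.

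PI3K adds a phosphate to a membrane lipid after a receptor such as KIT or the insulin-like growth factor receptor is engaged, and AKT is recruited to that lipid and activated. AKT phosphorylates FOXO proteins, which then leave the nucleus, and it phosphorylates TSC2, which frees mTOR complex 1 to drive protein synthesis. In primordial oocytes nuclear FOXO3 and an intact TSC complex keep the follicle at rest. FOXO1 is the FOXO protein known for high levels in granulosa cells of growing follicles. Much of this route acts through phosphorylation and protein location, which transcript levels do not measure.

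Across the 6 libraries the members' levels spanned more than an order of magnitude. On the FPKM scale, which is per length, the control order was Foxo1 at 99.0 ± 16.0, Akt1 at 90.5 ± 6.11, Akt2 at 53.8 ± 2.12, Pik3r1 at 27.7 ± 1.44 and Foxo3 at 14.6 ± 0.69 FPKM (SD, n = 3). Pik3ca at 12.9 ± 0.28, Tsc2 at 11.8 ± 0.89, Mtor at 8.40 ± 0.32 and Tsc1 at 5.88 ± 0.29 FPKM came after them. Among neighbours in this order, the control values of Foxo1 overlapped those of Akt1, and the values of Pik3ca overlapped those of Tsc2. In cKO ovaries Akt1 came before Akt2 and Foxo1 was in the third place, at 49.0 ± 4.56 FPKM. The cKO values of Akt2, 54.0 to 68.3 FPKM, did not overlap those of Foxo1, 44.7 to 53.8 FPKM. Tsc2 also stood above Pik3ca in every cKO library. The depth estimated for each library was 19.6 to 24.9 M fragments (M for 1e6). By these depths the members ran from about 119 fragments per kilobase, for Tsc1 in control 3, to about 2530, for Foxo1 in control 1.

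One of the 9 members changed. Foxo1 fell, and no member rose at an adjusted p below 0.05. Of all 14934 genes tested 2.24% rose and 2.09% fell by this rule. At an unadjusted p below 0.05 the count was 4 members, Foxo1 lower and Foxo3, Tsc2 and Mtor higher, where 14.5% of all tested genes were higher and 9.80% lower. The control and cKO ranges did not overlap for 6 members. Foxo3, Tsc1, Tsc2 and Mtor lay above control in every cKO library, as did 18.0% of all tested genes, and Foxo1 and Pik3ca lay below, as did 12.0%. The median log2 change of the 9 members was 0.16, and that of all tested genes was 0.05, with 58.5% of them positive.

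**Figure D1:**
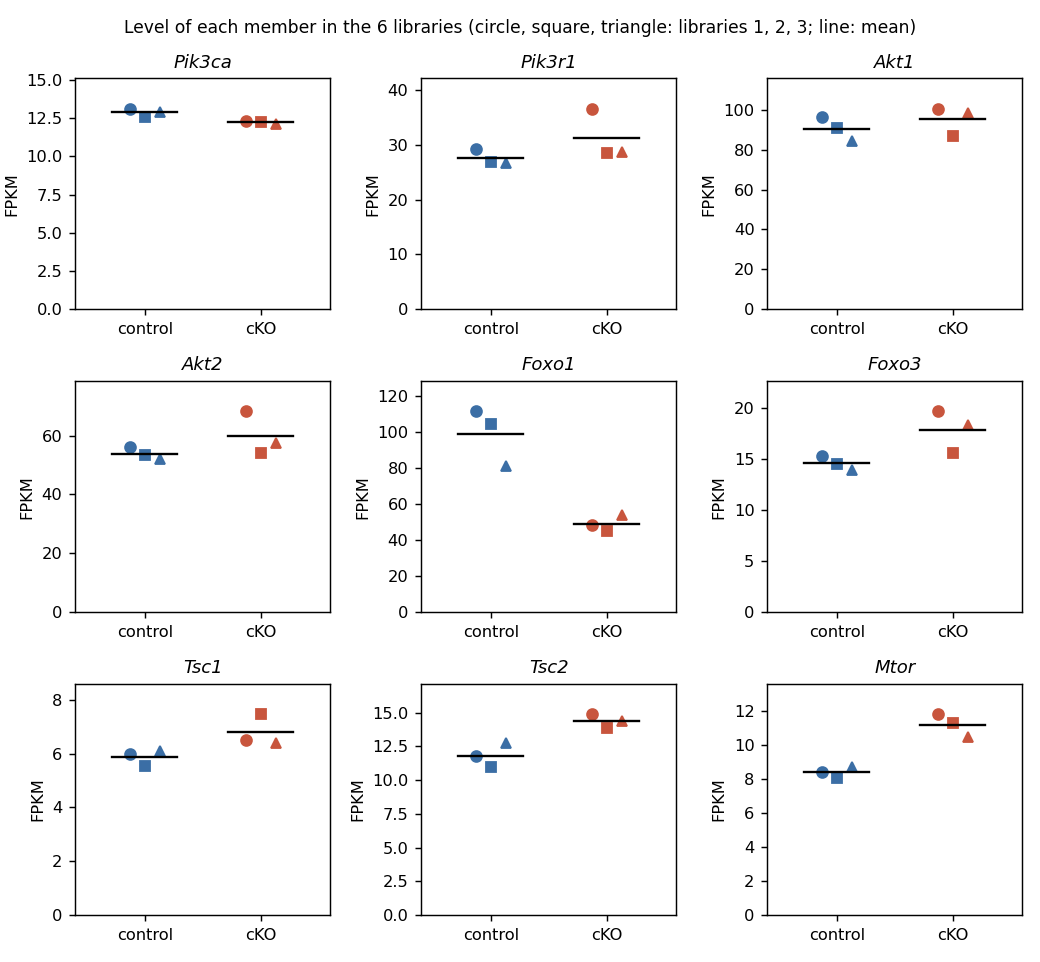
Level of each member in FPKM (vertical axes, starting at 0) in the 3 control (blue) and 3 cKO (orange) libraries, with symbols for library 1, 2 and 3 and a line at each group's mean. Foxo1 shows the widest gap, with controls at 80.9 FPKM or more and cKO libraries at 53.8 FPKM or less, while Akt1 shows overlapping groups.

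The DNA just before the start of transcription is shown for Foxo1, the member that fell, and for Mtor, the member with the next smallest p. Both windows hold the 250 bases upstream of the RefSeq start on build GRCm38.p6, the assembly of mm10, on the plus strand, at chr3:52268087-52268336 for Foxo1 and chr4:148448332-148448581 for Mtor. Capitals mark the GC box, GGGCGG or its reverse complement CCGCCC.
Foxo1: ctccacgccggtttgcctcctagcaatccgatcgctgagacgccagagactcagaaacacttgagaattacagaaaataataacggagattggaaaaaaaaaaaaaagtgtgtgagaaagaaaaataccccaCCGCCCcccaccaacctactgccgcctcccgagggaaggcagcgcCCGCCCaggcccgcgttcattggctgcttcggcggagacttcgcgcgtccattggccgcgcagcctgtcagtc
Mtor: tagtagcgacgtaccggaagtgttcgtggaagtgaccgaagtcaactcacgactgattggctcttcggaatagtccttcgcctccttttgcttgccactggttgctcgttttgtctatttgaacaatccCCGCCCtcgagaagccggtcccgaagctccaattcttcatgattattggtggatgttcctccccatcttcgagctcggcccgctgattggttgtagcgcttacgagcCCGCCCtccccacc
Each window holds 2 GC boxes, and a GC box was found on either strand in 33.0% of 32526 such windows of all genes. Of the 14 windows of the members 7 hold one. These belong to 7 of the 9 members, some of which have more than 1 window, and Tsc1 and Tsc2 have none. The share of 33.0% counts windows, so it can be set beside the 7 of 14 windows but not beside the 7 of 9 members. The forkhead core GTAAACA, searched on both strands, was in 3.17% of all windows and in 1 of the 14 windows of the members, the more upstream of the 2 for Akt1. The cyclic AMP response core TGACGTCA was in none of the 14 and in 1.56% of all windows. A match describes letters only and is not a measured binding site.

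Foxo1, a forkhead transcription factor gene that promotes quiescence and stress resistance in many cells, measured 111, 105 and 80.9 FPKM in control 1 to 3. In cKO 1 to 3 it measured 48.4, 44.7 and 53.8 FPKM. Every cKO library lay below every control, with control 3 the lowest of its group. The control mean was 2.02 times the cKO mean, and the log2 change was -0.99 with a standard error of 0.13 and a 95% interval from -1.30 to -0.68 (limma, adjusted p = 0.0181, n = 3). By p Foxo1 ranked 76 of the 14934 genes, and 66 of the genes that fell did so by more on the log2 scale. The gene lies on chromosome 3 at 52268336 to 52353221 (mm10, plus strand, 3 merged exons). The opposite-strand gene model Gm20402 shares 674 bases of its exon sequence and is listed at 0 in all 6 libraries. The direction held in every fit with a library left out. The call was lost without control 1 (adjusted p = 0.103), control 2 (0.107), cKO 1 (0.0937) or cKO 2 (0.0588) in limma, and it was kept without control 3 (0.00618), without cKO 3 (0.0382) and without both (0.0161).

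Markers of granulosa cells moved in the same comparison. Of 11 granulosa markers 5 fell and none rose, where 2.09% of all tested genes fell and 2.24% rose. The summed level of the 11 was 3744 to 4599 FPKM in control and 2574 to 2966 FPKM in cKO. None of them was at 0 in any library. Inha has the highest values in this sum, at 1767 to 2239 FPKM in control and 1101 to 1416 FPKM in cKO. The log2 change was negative for 8 of the 11 markers and positive for 3. The part of these markers in the Foxo1 result was not tested. The ratio of Foxo1 to each marker within a library was also measured. This ratio only sets the change of Foxo1 beside that of the marker, and does not give Foxo1 per granulosa cell. It was lower in every cKO library for 6 of the 11 markers, higher in every cKO library for 2, and overlapping for 3. Foxl2, the factor gene that keeps granulosa identity, was among the 6. Foxl2 itself measured 89.2, 77.5 and 86.9 FPKM in control 1 to 3 and 140, 93.2 and 114 FPKM in cKO 1 to 3, above every control, at a log2 change of 0.43 that did not pass (limma, adjusted p = 0.128). Kctd14 of the same list also lay above every control, at a log2 change of 0.49 and an adjusted p of 0.0825. Fshr, at -0.66 (limma, adjusted p = 0.0700), and Nr5a2, at -0.38 (0.0758), lay below every control and did not pass either. Of the 11 markers 7 lay below every control and 2 above, where 12.0% of all tested genes lay below and 18.0% above. The median log2 change of the 11 was -0.66, against 0.05 for all tested genes. Foxo1 was at 1.25, 1.35 and 0.931 times the level of Foxl2 in control 1 to 3 and at 0.347, 0.480 and 0.471 times in cKO 1 to 3. Relative to Amh, the anti-Mullerian hormone gene of growing follicles, it was at 0.388 to 0.393 in control and 0.186 to 0.237 in cKO. Relative to Gja1, the granulosa connexin gene, Foxo1 was at 0.121 to 0.130 in control and 0.123 to 0.132 in cKO, and Gja1 itself fell by 1.02 on the log2 scale. Fst, the follistatin gene, fell by more, and the ratio of Foxo1 to Fst was higher in cKO, at 1.24 to 1.65 against 0.765 to 0.859.

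**Figure D2:**
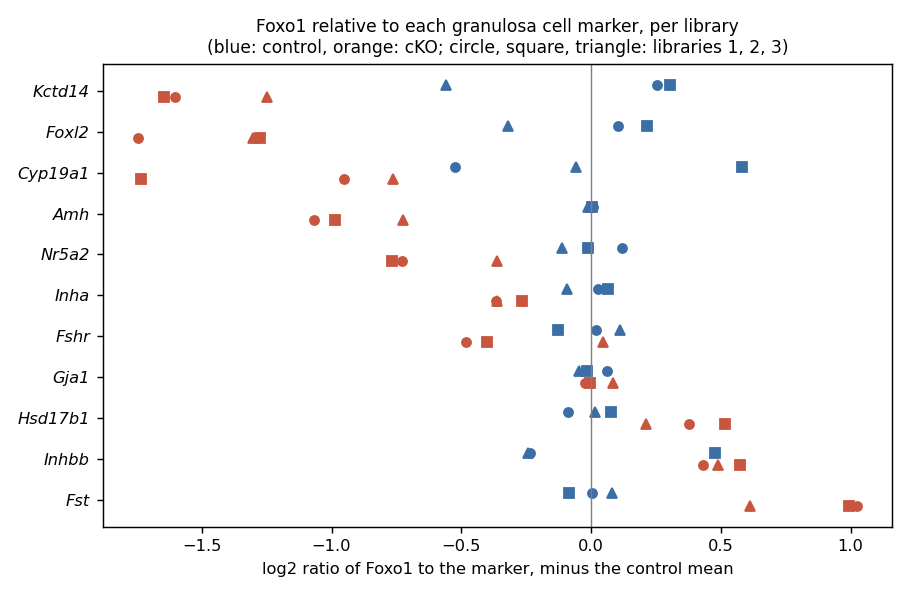
The log2 ratio of Foxo1 to each of 11 granulosa cell markers in each library, minus the control mean of that ratio (horizontal axis), with controls in blue and cKO libraries in orange. For Foxl2, Amh and 4 others the orange points lie left of every blue point, for Fst and Hsd17b1 they lie to the right, and for Gja1 they overlap.

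Foxo3, the forkhead gene whose product holds primordial oocytes at rest, measured 15.3, 14.5 and 13.9 FPKM in control 1 to 3 and 19.7, 15.5 and 18.3 FPKM in cKO 1 to 3. The groups did not overlap, although cKO 2 lay within 0.23 FPKM of control 1. It did not pass the test over all genes, with a log2 change of 0.27, a 95% interval from 0.03 to 0.50 and an adjusted p of 0.164 by limma. Of 12 oocyte markers 4 rose and none fell, where 2.24% of all tested genes rose and 2.09% fell. The other 8 markers did not pass, 3 of them with a negative log2 change, such as Bmp15 at -0.67. The summed level of the 12 was 942 to 1076 FPKM in control and 1248 to 1916 FPKM in cKO. Zp2, Zp3 and Gdf9 have the highest values in this sum. None of the 12 was at 0, and their part in the Foxo3 values was not tested. Foxo3 lies on chromosome 10 at 42181841 to 42276755, minus strand.

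The ratio of the 2 forkhead genes was measured within each library, where it does not depend on how the library was scaled. It compares levels in the whole ovary. The summed granulosa markers, in which Inha has the highest values, were lower in every cKO library than in any control. The summed oocyte markers were higher in every cKO library than in any control. The part of either marker list in this ratio was not tested. Foxo1 was at 7.28, 7.21 and 5.80 times Foxo3 in control 1 to 3 and at 2.46, 2.88 and 2.94 times in cKO 1 to 3. Every cKO ratio was below every control ratio, with a log2 difference of -1.29. An exact permutation test, two-sided, gave p = 0.1, which is the lowest value possible for 3 against 3, and 0.2 after adjustment over the 4 ratios computed. The remaining FOXO genes did not pass. Foxo4 ranged from 12.4 to 15.1 FPKM among controls and from 12.1 to 14.3 FPKM among cKO libraries, and Foxo6 measured 3.27 to 3.99 and 3.66 to 4.75 FPKM, with overlapping groups for both.

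Mtor, which encodes the kinase of both mTOR complexes, measured 8.43, 8.07 and 8.70 FPKM in control 1 to 3 and 11.8, 11.3 and 10.5 FPKM in cKO 1 to 3. The groups lay apart, with every cKO value at least 1.77 FPKM above every control. The cKO mean was 1.33 times the control mean. The log2 change was 0.37 with a standard error of 0.08 and a 95% interval from 0.18 to 0.57, and it missed the threshold by limma at an adjusted p of 0.0530. It passed with a pseudocount of 0.1 (0.0487), with a minimum mean of 2 FPKM (0.0413), with array weights (0.0241) and with robust eBayes (0.0492), and with 1 library left out the adjusted p was 0.0641 to 0.233. Mtor lies on chromosome 4 at 148448611 to 148557683, plus strand, with 56 merged exons and no exon overlap with another gene.

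The TSC complex, a brake on mTOR complex 1, was followed through its 2 core genes. Tsc2, which carries the GTPase-activating domain that AKT signalling restrains, measured 11.8, 10.9 and 12.7 FPKM in control 1 to 3 and 14.9, 13.9 and 14.4 FPKM in cKO 1 to 3. The groups did not overlap, and the log2 change was 0.26 with a 95% interval from 0.07 to 0.46 (limma, adjusted p = 0.115). Tsc2 passed with array weights, at an adjusted p of 0.0437. Its exons share 693 bases with Pkd1 on the opposite strand, and Pkd1 averaged 6.76 ± 0.28 FPKM over the controls and 9.48 ± 2.13 FPKM over the cKO libraries (SD, n = 3), so fragments of the 2 genes may be mixed there if the counting ignored strand.

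Tsc1, which stabilises TSC2, measured 6.01, 5.55 and 6.09 FPKM in control 1 to 3 and 6.50, 7.47 and 6.41 FPKM in cKO 1 to 3. Its groups were apart by 0.33 FPKM, and the log2 change was 0.18 with a 95% interval from -0.04 to 0.40 (limma, adjusted p = 0.297). The ratio of Tsc1 to Tsc2 was 0.478 to 0.509 in control and 0.437 to 0.537 in cKO, with overlapping groups and a two-sided exact permutation p of 0.4. Tsc1 lies on chromosome 2 at 28641228 to 28691167 and Tsc2 on chromosome 17 at 24595816 to 24632630.

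Upstream, the 4 genes of PI3K and AKT did not pass. Pik3ca, the catalytic subunit p110 alpha, measured 13.1, 12.6 and 12.9 FPKM in control 1 to 3 and 12.3, 12.2 and 12.1 FPKM in cKO 1 to 3. Every cKO value was below every control, but the difference was small, with a log2 change of -0.07, a 95% interval from -0.24 to 0.10 and an adjusted p of 0.595 by limma. With libraries centred on reference genes its log2 change was 0.003, on the other side of 0. Pik3r1, the main regulatory subunit, measured 29.3, 27.0 and 26.7 FPKM in control 1 to 3 and 36.7, 28.5 and 28.8 FPKM in cKO 1 to 3, and cKO 1 alone stood above all controls. Its log2 change was 0.16, with a 95% interval from -0.09 to 0.42 and an adjusted p of 0.410. The ratio of Pik3ca to Pik3r1 lay between 0.447 and 0.483 in the controls and was 0.335, 0.428 and 0.422 in cKO 1 to 3. It was lower in every cKO library, at a log2 difference of -0.25 and an exact permutation p of 0.1, or 0.2 adjusted over the 4 ratios. Without cKO 1 the log2 difference was -0.13.

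Akt1, the AKT kinase gene with the broadest expression, measured 96.4, 90.9 and 84.2 FPKM in control 1 to 3 and 101, 87.1 and 98.2 FPKM in cKO 1 to 3. The groups overlapped, and the log2 change was 0.07 with a 95% interval from -0.13 to 0.28 (limma, adjusted p = 0.653). Akt2, the AKT gene best known from insulin action, measured 56.1, 53.4 and 51.9 FPKM in control 1 to 3 and 68.3, 54.0 and 57.7 FPKM in cKO 1 to 3. Its log2 change was 0.15 with a 95% interval from -0.08 to 0.38, at an adjusted p of 0.410. The ratio of Akt1 to Akt2 was 1.62 to 1.72 in control and 1.47 to 1.70 in cKO, with an exact permutation p of 0.3. Among cKO libraries, 7 of the 9 members were highest in cKO 1, namely Akt1, Akt2, Pik3ca, Pik3r1, Foxo3, Tsc2 and Mtor. Without cKO 1 the log2 change was 0.05 for Akt2 and 0.05 for Pik3r1.

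**Figure D3:**
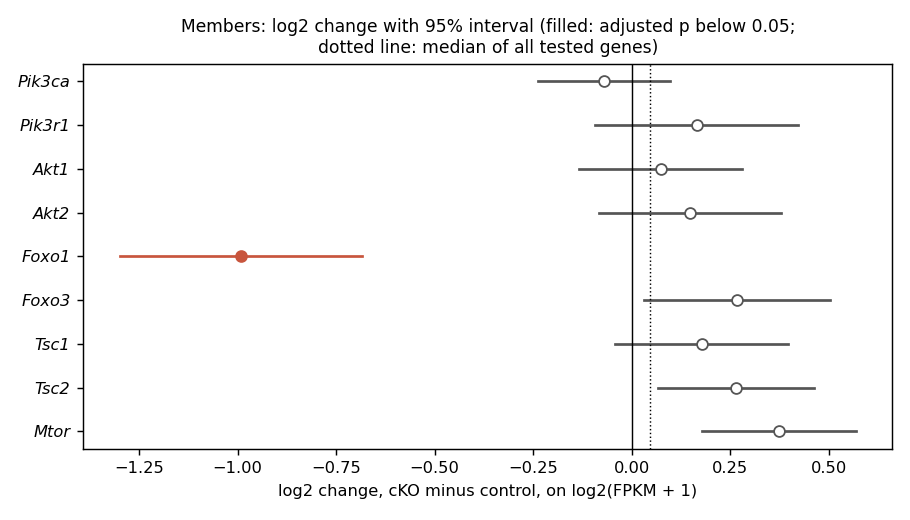
The log2 change of each member, cKO minus control, on the log2(FPKM + 1) scale (horizontal axis), with its 95% interval from limma and a dotted line at the median of all tested genes, 0.05. The filled point is Foxo1 at -0.99, whose interval ends at -0.68, and the intervals of Mtor, Tsc2 and Foxo3 start above 0 while their adjusted p-values do not pass.

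**Figure D4:**
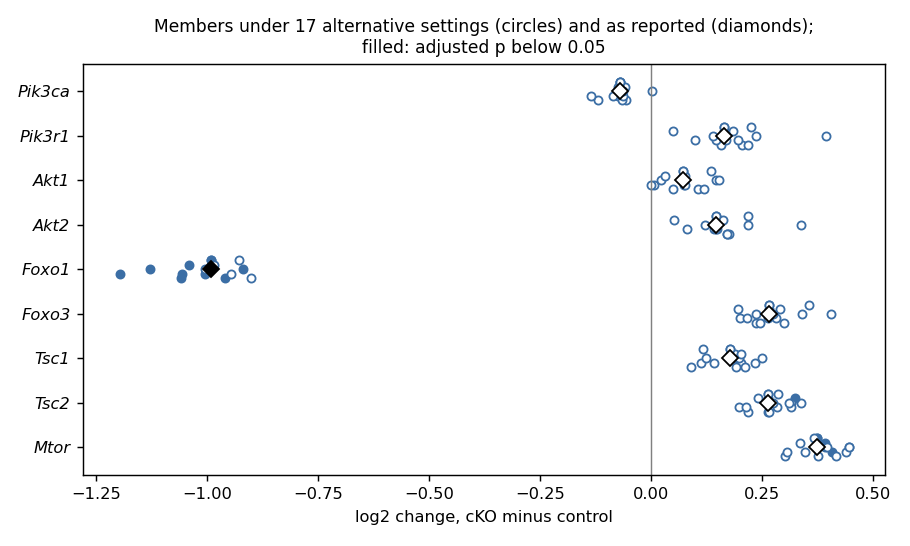
The log2 change of each member, cKO minus control (horizontal axis), as reported (diamonds) and under 17 other settings (circles), filled where the adjusted p is below 0.05. The points of Foxo1 lie between -1.20 and -0.90 and are partly filled, those of Mtor lie between 0.30 and 0.45, and 1 point of Pik3ca lies just above 0.

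The wider route was covered by 10 lists of genes ordered by role, with 141 genes in all, of which 133 were tested, and the members are part of these lists. Of the 133, 3 rose and 3 fell, and the 4.51% that passed counts both directions. Among all tested genes 2.24% rose and 2.09% fell, each a share for a single direction. The median log2 change of the 133 was 0.08 against 0.05 for all tested genes. None of the 133 passed when control 1, control 2 or cKO 1 was left out. Without cKO 2 the count was 1 rising and 0 falling, without control 3 it was 1 and 3, and without cKO 3 it was 3 and 2, with Pik3r3 in none of these counts. Besides Foxo1, the genes that fell were Igf1 and Bnip3, and those that rose were Pdgfra, Pik3r3 and Sesn3.

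Among 15 genes of receptors, ligands and adaptors, 1 fell, 1 rose and 13 did not pass, with a median log2 change of 0.26. Igf1, the growth factor gene whose receptor activates PI3K, measured 66.7, 70.3 and 42.1 FPKM in control 1 to 3 and 23.3, 26.7 and 24.3 FPKM in cKO 1 to 3. Control 3 was the lowest control and still above every cKO library, and the log2 change was -1.20 with a standard error of 0.18 (limma, adjusted p = 0.0241). The summed granulosa markers were also lower in every cKO library, and their part in the Igf1 values was not tested. Pdgfra, a PI3K-linked growth factor receptor gene of stromal cells, measured 24.4, 24.2 and 27.4 FPKM in control 1 to 3 and 55.4, 46.7 and 35.0 FPKM in cKO 1 to 3, a log2 change of 0.81 at an adjusted p of 0.0380. The stroma and smooth muscle markers, of which 1 of 8 rose, summed to 1182 to 1266 FPKM in control and 1144 to 1563 FPKM in cKO. The log2 change was positive for 7 of the 8 and for 58.5% of all tested genes. The mean level of the 8 on the log2(FPKM + 1) scale was 6.32 to 6.41 in control and 6.45 to 6.92 in cKO. Their part in the Pdgfra values was not tested. Exons of Pdgfra share 622 bases with gene models on the opposite strand. The receptor gene Kit and its ligand gene Kitl, which act on PI3K in the oocyte and are named here with their values already seen, did not pass. Kit ranged from 10.2 to 15.7 FPKM among controls and from 14.7 to 18.5 FPKM among cKO libraries. Kitl was at 33.2 to 46.1 FPKM in the controls and reached 79.8, 73.7 and 47.9 FPKM in cKO 1 to 3, with adjusted p-values by limma of 0.177 for Kit and 0.0854 for Kitl.

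Of 14 tested PI3K subunit genes 1 rose and none fell, with a median log2 change of 0.14. Pik3r3, which encodes the regulatory subunit p55 gamma, measured 4.32, 5.19 and 4.63 FPKM in control 1 to 3 and 7.03, 7.31 and 6.34 FPKM in cKO 1 to 3. The groups lay apart, and the log2 change was 0.47 with a standard error of 0.10 (limma, adjusted p = 0.0483). The call was lost in 12 of 17 alternatives, among them each of the 6 that leave out 1 library, at adjusted p from 0.0631 to 0.184, and those with quantile normalisation (0.0801), median centring (0.0662) or no filter (0.110). It shares 1289 bases of exon with the gene model Gm49337 on the same strand. None of 14 tested phosphatase genes that oppose PI3K or AKT passed, nor any of 8 genes of AKT and related kinases, at median log2 changes of 0.06 and 0.08. The 2 phosphatase genes with the highest mean, Ppp2r1a and Ppp2cb of protein phosphatase 2A, had overlapping groups, and the 2 highest kinase genes were Akt1 and Akt2.

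Of 20 tested FOXO target genes 1 rose, 1 fell and 18 did not pass, with 11 positive and 9 negative log2 changes. Sesn3, a sestrin gene that FOXO factors activate and whose product restrains mTOR complex 1, measured 7.42, 8.04 and 7.78 FPKM in control 1 to 3 and 17.5, 20.3 and 13.9 FPKM in cKO 1 to 3. Its cKO mean was 2.22 times the control mean, with a log2 change of 1.04 and a standard error of 0.13 (limma, adjusted p = 0.0169). Bnip3, a mitophagy gene, measured 42.5, 38.8 and 41.7 FPKM in control 1 to 3 and 28.9, 29.6 and 30.8 FPKM in cKO 1 to 3, a log2 change of -0.45 at an adjusted p of 0.0275. Exons of Bnip3 share 504 bases with the gene model Gm45507 on the opposite strand.

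Of 15 genes of the TSC complex, AMP-activated kinase and stress inputs, Sesn3, which also stands in this list, was the 1 that rose, and none fell. None of 11 genes of the mTOR complexes passed, and 9 had a positive log2 change, as did 58.5% of all tested genes. The 11 had a median of 0.25, against 0.05 for all tested genes, and ranged from -0.24 to 0.37, Mtor being the highest. The lowest of them, Rheb, the small GTPase gene that activates mTOR complex 1, measured 73.0 to 74.4 FPKM in control and 60.5 to 66.1 FPKM in cKO libraries, with an adjusted p of 0.0963 by limma. Rheb passed as lower with libraries centred on the median, at a log2 change of -0.30 and an adjusted p of 0.0442. Akt1s1, whose product inhibits mTOR complex 1, lay at 55.4 to 60.8 FPKM in control and at 52.4 to 65.2 FPKM in cKO libraries. None of 20 genes of the RAG, Ragulator and GATOR complexes, which bring amino acid signals to mTOR, passed, at a median log2 change of 0.01. The 2 with the highest mean were Sec13, at 77.8 to 91.9 FPKM in control and 76.3 to 86.1 FPKM in cKO, and Lamtor1, at 62.5 to 62.6 and 62.8 to 68.9 FPKM. None of 16 genes of mTOR complex 1 substrates and translation passed, at a median of 0.01. In that list the ribosomal protein gene Rps6 measured 1742 to 1932 FPKM in control and 1603 to 1831 FPKM in cKO, and the initiation factor gene Eif4b 154 to 167 and 150 to 188 FPKM, with overlapping groups for both.

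**Figure D5:**
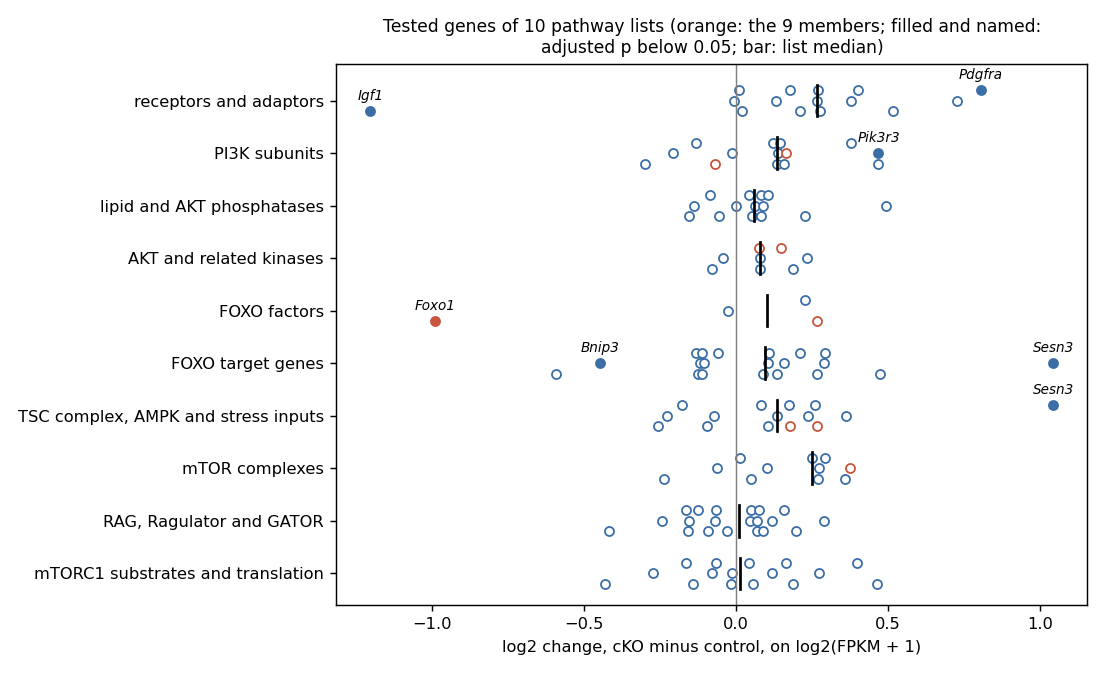
The log2 change, cKO minus control, of every tested gene in the 10 lists (horizontal axis), with members in orange, genes past an adjusted p of 0.05 filled and named, and a bar at each list's median. Igf1 at -1.20, Foxo1 at -0.99 and Sesn3 at 1.04 lie farthest out, and the medians run from 0.01 to 0.26.

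The genes whose levels over the 6 libraries were most like those of Foxo1 were Foxp2, Snrpf and Zfp277, with Pearson correlations of log2 values of 0.9992, 0.9991 and 0.9988. Foxp2, another forkhead factor gene, measured 12.3, 11.6 and 9.05 FPKM in control 1 to 3 and 6.02, 5.57 and 6.57 FPKM in cKO 1 to 3. Such values are a description over 6 libraries in 2 groups, and 372 tested genes had a correlation with Foxo1 above 0.95. For Foxo3 the nearest were Wwp2, a ubiquitin ligase gene, Wdsub1 and Strn4, at 0.9946, 0.9946 and 0.9939. Like Foxo3 these were highest in cKO 1 and lowest in control 3, and none of the 3 passed the test.

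Library-wide features touch these results as follows. By the same test 334 genes rose and 312 fell, a split that was 254 and 577 with libraries centred on the median, 270 and 421 with quantile normalisation and 452 and 251 with libraries centred on the reference genes. Leaving out control 1 gave 1 higher and 4 lower genes, leaving out control 2 or cKO 1 gave 0 and 2 each, leaving out cKO 2 gave 40 and 38, and leaving out cKO 3 gave 209 and 176. Adipose markers summed to 40.6 FPKM in control 3 against 14.7 to 17.3 FPKM elsewhere, immune markers to 536 FPKM in cKO 3 against 7.86 to 11.3 FPKM elsewhere, and blood markers to 417 to 3476 FPKM without a split by group. The immune sum in cKO 3 was nearly all S100a8 at 219 and S100a9 at 307 FPKM, genes best known from neutrophils, and Cd68, Csf1r and Ptprc were at 0.995 to 4.88 FPKM there. By the numbers that begin the library titles, cKO 1 sits near the controls, and cKO 2 and cKO 3 sit together in a higher range. The labels do not explain these numbers, and the higher range has no control library. The ovary label fits the markers measured, as all 12 oocyte and all 11 granulosa markers were detected in every library.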

How the data were processed

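RNA of 6 pools of whole ovaries was sequenced on an Illumina HiSeq system, per the labels. The deposited values are FPKM, read as such from the values and from Cufflinks being named. The submitters' processing notes list TopHat2 2.0, Cufflinks 2.0 and mm10 without saying what each did, and the sources used here do not give annotation, strand setting, filters or scaling. Groups follow the genotype label, and replicate numbers follow accession order. The floxed gene itself is not reported here.

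Genes with a mean of at least 0.5 FPKM were tested with limma 3.58.1 in R 4.3.3 (eBayes with trend) on log2(FPKM + 1), which understates changes of low genes, with Benjamini-Hochberg adjustment over 14934 genes and a threshold of 0.05. Ratios were tested by two-sided exact permutation. Named were the members, up to 4 passing genes per list by p or else the 2 with the highest mean, and the 3 genes most correlated with Foxo1 and with Foxo3. The members and lists were chosen with earlier results of these data known. Depth was estimated from FPKM values below 0.15, each read as 1 fragment, in single-transcript genes of at least 1500 exon bases less 150. Exons and overlaps are from GENCODE M21. The test was checked on simulated data for cKO versus control (14934 genes, normal noise with the fitted SDs, drawn independently for each gene). It recovered 96% of changes of 1 and 100% of changes of 2 on the log2 scale, and 17 of 213 calls were wrong. Changes were placed only in genes of higher level, and shifts shared by a library were not simulated. Recovery in the real libraries was therefore not measured.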

Additional observations from a re-analysis of the deposited data

How the results depend on the processing

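No paired analysis was possible because replicate numbers follow accession order only. Under the 17 alternatives each of the 9 members kept its direction, except Pik3ca, whose log2 change was 0.0029 with libraries centred on reference genes. The call of Foxo1 held in 11 of the 17, at log2 changes from -1.20 to -0.92. It was lost in 6, at -1.004 to -0.900, namely without any of 4 libraries, without a filter on low values (adjusted p = 0.0681) and for the 3 controls against cKO 1 (0.123), where cKO 1 is taken to vary like a control. With 1 library left out, genes higher numbered 0 to 307 and lower 2 to 353, members 0 higher and 0 to 1 lower, pathway genes 0 to 3 in each direction. Fewer samples enter these fits. No filter gave 4 higher and 24 lower genes, 0 members lower and 0 pathway genes in either direction, with more genes tested. The 3 controls against cKO 1 gave 22 and 1 genes, 0 members and 0 pathway genes. Array weights gave 1041 and 743 genes, 2 members higher, and 13 and 6 pathway genes. Centring on the median gave 577 lower genes and 5 lower pathway genes, and leaving out control 3 and cKO 3 gave 204 higher genes. Members higher numbered 1 with a pseudocount of 0.1, a minimum of 2 FPKM or robust eBayes, where pathway genes higher numbered 5, 6 and 6; centring on reference genes gave 8. For these the cause was not tested. The 4 ratios kept their direction. Counting error was not computed, as the depths are estimates.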

Other observations

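Besides Mtor, the genes of the 10 lists with an adjusted p between 0.05 and 0.06 were Pik3cd and Grb10, a range chosen after the values were seen. Pik3cd, the PI3K catalytic subunit gene best known from leukocytes, averaged 13.1 ± 0.33 FPKM over the controls and 18.6 ± 2.54 FPKM over the cKO libraries (SD, n = 3), at an adjusted p of 0.0517 by limma. It was highest in cKO 3, at 21.5 FPKM, where the immune markers S100a8 and S100a9 stood at 219 and 307 FPKM and Cd68, Csf1r and Ptprc at 0.995 to 4.88 FPKM; their part in the values was not tested. Grb10, an imprinted adaptor gene whose product restrains insulin receptor signalling, had a log2 change of 0.40 at an adjusted p of 0.0530. The groups did not overlap for either gene.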
